A study of Arabidopsis thaliana with 34 samples.

Results

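Of the 27538 genes listed in the deposited tables, the 9 described here are morning clock genes of Arabidopsis thaliana, chosen by locus: CCA1 (AT2G46830), LHY (AT1G01060), PRR9 (AT2G46790), PRR7 (AT5G02810), RVE8 (AT3G09600), RVE4 (AT5G02840), RVE6 (AT5G52660), LNK1 (AT5G64170) and LNK2 (AT3G54500). Their expression was measured by stranded RNA-seq in 34 samples of plants lacking a large duplicated segment of the genome, which had been cut out with Staphylococcus aureus Cas9, and of their controls. All plants grew in long days. In the time-of-day experiment, T4 seedlings of the pAP141 line (a deletion on chromosome 3), T4 seedlings of the pAP142 line (a deletion on chromosome 5) and wild-type Col-0 seedlings were taken from plates after about 2 weeks, as pools, in the morning (t2) or the evening (t1). There were 2 pAP141, 3 pAP142 and 3 Col-0 samples at t2, and 4 pAP141, 3 pAP142 and 4 Col-0 samples at t1. In the pAP146 experiment (T3 plants of 1 line, with another deletion on chromosome 3), the samples were 4 homozygous seedlings, which were taken whole because their growth was delayed, and leaves of 3 heterozygous plants, 4 sibling controls and 4 Col-0 plants. Homozygous genotype and whole-seedling tissue cannot be told apart in that experiment, and the hour of its collection was not given in the sources used here. Each deletion is represented by 1 line, so that effects of the deletion and of anything else particular to the line cannot be told apart.

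The plant circadian clock is a network of transcription factors that largely repress each other in turn over the day. CCA1 and LHY are paralogous single-MYB repressors that accumulate around dawn and bind the evening element in the promoters of evening genes such as TOC1. The pseudo-response regulators PRR9 and PRR7 follow later in the morning and repress CCA1 and LHY. RVE8, RVE4 and RVE6 are MYB proteins of the same family as CCA1, but activate evening-phased genes. LNK1 and LNK2 are coactivators, without a known DNA-binding domain, that associate with RVE8.

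The members lie on 4 chromosomes of the TAIR10.1 assembly, and none is among the genes listed as deleted. CCA1 (chromosome 2, 19245591 to 19248915, plus strand) starts 10.4 kb from the end of PRR9 (chromosome 2, 19232607 to 19235179, plus strand). PRR7 (chromosome 5, 637681 to 642030, minus strand) and RVE4 (chromosome 5, 648648 to 651979, plus strand) lie 6.6 kb apart. LHY is on chromosome 1 (33365 to 37871, minus strand). RVE8 (2946239 to 2949017, plus strand) and LNK2 (20175370 to 20179070, minus strand) are on chromosome 3. RVE6 (21359001 to 21362273, minus strand) and LNK1 (25672466 to 25676823, minus strand) are on chromosome 5. The 250 bases upstream of each RefSeq gene start were searched on both strands for 7 motifs of clock and light regulation. The G-box CACGTG, which bZIP and bHLH factors of light signalling bind, was found in CCA1, LHY, PRR9 and PRR7, that is in 4 of 9 members, against 6.51% of the 27354 promoters of all genes. It was also found in 2 of 12 evening clock genes (LUX and BOA). The windows of CCA1, LHY, PRR9 and PRR7 are printed 5′ to 3′ on the strand of the gene, from RefSeq sequence, with the G-box in capitals, to show where the motif they share lies.
CCA1 (chr2:19245341-19245590, plus strand): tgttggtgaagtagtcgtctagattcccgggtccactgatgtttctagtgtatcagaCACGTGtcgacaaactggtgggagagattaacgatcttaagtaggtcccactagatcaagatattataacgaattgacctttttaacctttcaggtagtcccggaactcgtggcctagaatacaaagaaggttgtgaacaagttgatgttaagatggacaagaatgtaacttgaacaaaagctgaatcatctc
LHY (chr1:37872-38121, minus strand): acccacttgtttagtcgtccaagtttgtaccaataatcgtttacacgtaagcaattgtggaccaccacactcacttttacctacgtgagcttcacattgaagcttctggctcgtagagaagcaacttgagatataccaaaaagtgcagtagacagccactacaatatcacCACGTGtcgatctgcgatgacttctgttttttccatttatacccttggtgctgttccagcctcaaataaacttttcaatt
PRR9 (chr2:19232357-19232606, plus strand): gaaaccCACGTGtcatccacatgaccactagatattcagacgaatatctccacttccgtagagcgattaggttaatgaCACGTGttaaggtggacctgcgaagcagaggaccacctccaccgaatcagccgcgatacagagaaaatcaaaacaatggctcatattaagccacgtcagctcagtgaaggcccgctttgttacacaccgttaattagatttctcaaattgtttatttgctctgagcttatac
PRR7 (chr5:642031-642280, minus strand): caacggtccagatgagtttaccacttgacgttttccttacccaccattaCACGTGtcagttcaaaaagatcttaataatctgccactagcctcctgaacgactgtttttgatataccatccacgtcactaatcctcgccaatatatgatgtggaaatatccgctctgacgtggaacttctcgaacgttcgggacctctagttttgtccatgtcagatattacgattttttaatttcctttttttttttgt

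The G-box begins 193 bases upstream of the start of CCA1, 80 bases upstream of LHY and 201 bases upstream of PRR7, and PRR9 holds it at 244 and again at 172 bases upstream. The CCA1 window also holds a class I TCP site (GGNCCCAC, found in 1.09% of promoters), which begins 150 bases upstream. Sites of this class are bound by CHE, a TCP-family repressor of CCA1. The evening element AAAATATCT was found in 0 of 9 members, against 6 of 12 evening clock genes (TOC1, LUX, BOA, PRR5, FKF1 and COR27) and 2.36% of all promoters. The related CCA1-binding site AAAAATCT was found in RVE6 and in no other member (6.7% of all promoters). The LUX-binding site GATACG (4.57%) was found in RVE4 and LNK2, its variant GATTCG (7.9%) in PRR9, and the morning element CCACAC (6.18%) in LHY and RVE4. Among the evening clock genes, PRR5 and COR28 held the CCA1-binding site, ELF3 and ELF4 held GATACG, and PRR5 held the morning element. None of these motifs overlapped another within a member's window. A match describes the letters in the window, and binding was not measured.

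Estimated counts summed to 26640541 to 43851997 per sample. The 27 genes listed as deleted in pAP141 summed to at most 0.0205 TPM (transcripts scaled to a fixed sum per sample and corrected for length) in any pAP141 sample, against at least 61.6 TPM in Col-0 seedlings. The 16 genes listed for pAP142 summed to 8.04 to 11.2 TPM in pAP142, against 790.4 to 904.7 TPM in Col-0 seedlings. The 60 genes listed for pAP146 summed to at most 0.154 TPM in homozygous seedlings and to 118 to 134 TPM in heterozygous leaves, against 231 to 279 TPM in sibling leaves. The first principal component parted t2 from t1 samples in the time-of-day experiment (40.5% of the variance) and homozygous seedlings from leaves in the pAP146 experiment (73.3%). Differences are given below as log2 fold changes of counts scaled by TMM, a normalization that holds the bulk of genes level. Relative to TMM, the TPM scale moved the median gene between t2 and t1 by -0.18 (Col-0), -0.23 (pAP141) and -0.17 (pAP142) on the log2 scale. It moved the median gene by -0.21 (t2) and -0.17 (t1) between pAP141 and Col-0, and by 0.70 between homozygous pAP146 seedlings and either leaf control. The 50 most abundant transcripts held 23.9 to 28.8% of all TPM in homozygous seedlings, against 35.0 to 39.8% in sibling leaves.

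**Figure D1:**
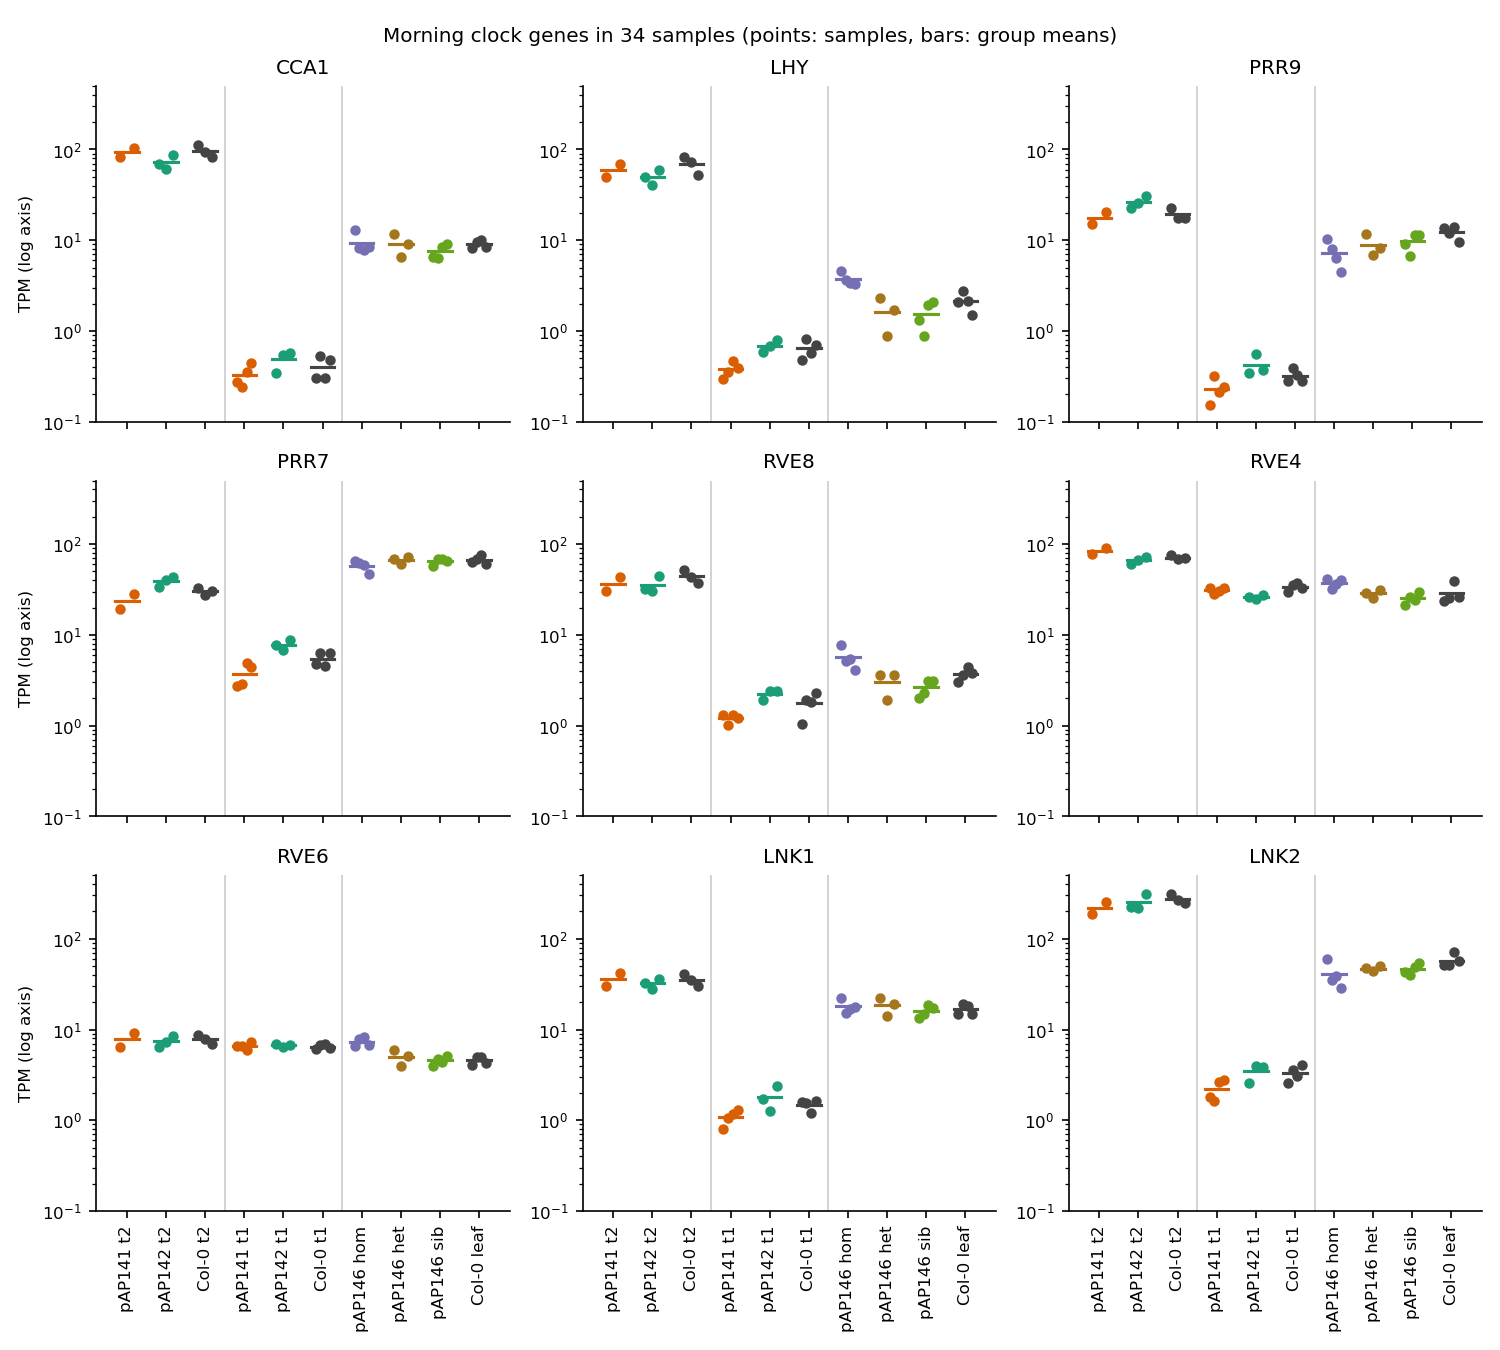
Level of each morning clock gene in TPM (log axis) in the 34 samples, with points for samples, horizontal bars for group means, and vertical lines parting morning seedlings (t2), evening seedlings (t1) and the pAP146 experiment (hom, homozygous seedlings; het, heterozygous leaves; sib, sibling leaves). All members but RVE6 were higher in every t2 sample than in every t1 sample, and RVE6 stayed between 3.92 and 9.24 TPM throughout.

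The comparison of t2 with t1 in Col-0 gives the difference between morning and evening in wild-type seedlings. All 9 members rose, at an adjusted p under 0.05 in edgeR's quasi-likelihood test (Benjamini-Hochberg over 21356 genes), where 14.0% of all genes tested were called higher. The median log2 fold change of the members was 4.84, against -0.01 over all genes. The differences ran from 273-fold for CCA1, the third largest increase among all genes tested, to 1.38-fold for RVE6. In bulk seedlings, fewer cells that express a gene and less RNA per cell cannot be told apart. Nothing in the labels says that the pools of a group were grown separately, and the p-values then measure only the spread between these pools.

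The paralogous repressors CCA1 and LHY differed most. CCA1 had 112, 94.6 and 83.1 TPM in Col-0 at t2, against 0.303, 0.528, 0.302 and 0.478 TPM in Col-0 at t1. LHY had 81.6, 72.9 and 52.9 TPM in Col-0 at t2, against 0.478, 0.820, 0.570 and 0.706 TPM in Col-0 at t1. All morning samples were far above all evening samples, in which CCA1 was down to 28 to 55 estimated counts and LHY to 56 to 91. The log2 fold change was 8.09 ± 0.20 (SE) for CCA1 and 6.94 ± 0.17 for LHY (adjusted p = 6.1e-15 in edgeR for each). The ratio of CCA1 to LHY turned over between the times, with 1.30 to 1.57 times as much CCA1 as LHY in TPM at t2, against 0.529 to 0.678 times at t1.

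Of the pseudo-response regulators, PRR9 differed more than PRR7. PRR9 had 22.6, 17.5 and 17.7 TPM in Col-0 at t2, against 0.280, 0.391, 0.332 and 0.283 TPM in Col-0 at t1. PRR7 had 33.2, 27.8 and 30.8 TPM in Col-0 at t2, against 4.79, 6.35, 4.53 and 6.24 TPM in Col-0 at t1. Both genes were therefore present in the morning at like levels, while in the evening PRR7 kept at least 4.53 TPM and PRR9 was under 1 TPM. The log2 fold change was 6.10 ± 0.18 for PRR9 (adjusted p = 4.3e-14 in edgeR) and 2.68 ± 0.16 for PRR7 (adjusted p = 5.9e-10), and PRR7 to PRR9 ratios in TPM were 1.47 to 1.74 at t2, against 13.6 to 22 at t1.

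The REVEILLE activators fell into a graded order. RVE8 had 52.1, 42.9 and 37.7 TPM in Col-0 at t2, against 1.03, 1.92, 1.84 and 2.31 TPM in Col-0 at t1 (log2 fold change 4.84 ± 0.18, adjusted p = 9.8e-13 in edgeR). RVE4 had 75.5, 68.5 and 69.5 TPM in Col-0 at t2, against 29.8, 35.0, 37.0 and 33.1 TPM in Col-0 at t1 (log2 fold change 1.27 ± 0.10, adjusted p = 2.6e-08). RVE4 was thus the member with the highest evening level, and its morning and evening samples did not overlap. RVE6 had 8.64, 7.93 and 6.97 TPM in Col-0 at t2, against 6.03, 6.73, 6.96 and 6.18 TPM in Col-0 at t1. Its samples all but touched, and its log2 fold change of 0.46 ± 0.11 (adjusted p = 0.00395 in edgeR) was 0.24 on the log2(TPM + 1) scale, where it did not pass (adjusted p = 0.1 in limma).

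The coactivators LNK1 and LNK2 both rose, LNK2 the more. LNK2 had 307.7, 267.9 and 245.1 TPM in Col-0 at t2, against 2.60, 3.60, 3.05 and 4.03 TPM in Col-0 at t1 (log2 fold change 6.56 ± 0.19, adjusted p = 4.0e-14 in edgeR). LNK1 had 41.2, 34.8 and 29.9 TPM in Col-0 at t2, against 1.603, 1.53, 1.20 and 1.62 TPM in Col-0 at t1 (log2 fold change 4.74 ± 0.17, adjusted p = 6.0e-13 in edgeR). LNK2 was the most abundant member in every morning sample and held 41.9 to 42.7% of the summed TPM of the 9 members in Col-0 at t2, against 5.47 to 7.34% at t1. In sum the members had 573.6 to 734.3 TPM in Col-0 at t2, against 46.9 to 56.9 TPM at t1. Photosynthetic leaf markers also moved with the time of day (5 of 6 called higher), and summed to 44624 to 47600 TPM in Col-0 at t2, against 25956 to 28253 TPM at t1, while 0 of 12 root markers were called. The part of the leaf markers in the members' values was not tested.

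The same comparison within each deletion line gave the same direction for the members called. In pAP141 all 9 members rose, where 17.9% of all genes were called higher. In pAP142, 8 of 9 rose, where 13.1% of all genes were called higher, and RVE6 had a log2 fold change of 0.32 ± 0.12 (adjusted p = 0.0537 in edgeR, 0.0443 in DESeq2). RVE6 in pAP141 was called at 0.47 ± 0.13 (adjusted p = 0.00721), but not on the log2(TPM + 1) scale (0.20, adjusted p = 0.235 in limma). CCA1 rose 335-fold in pAP141 and 168-fold in pAP142, and LHY 186-fold in pAP141 and 82.8-fold in pAP142, beside 122-fold in Col-0. PRR9 rose 89.5-fold in pAP141, 70.1-fold in pAP142 and 68.4-fold in Col-0. LNK2 rose 118-fold in pAP141, 82.3-fold in pAP142 and 94.1-fold in Col-0.

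**Figure D2:**
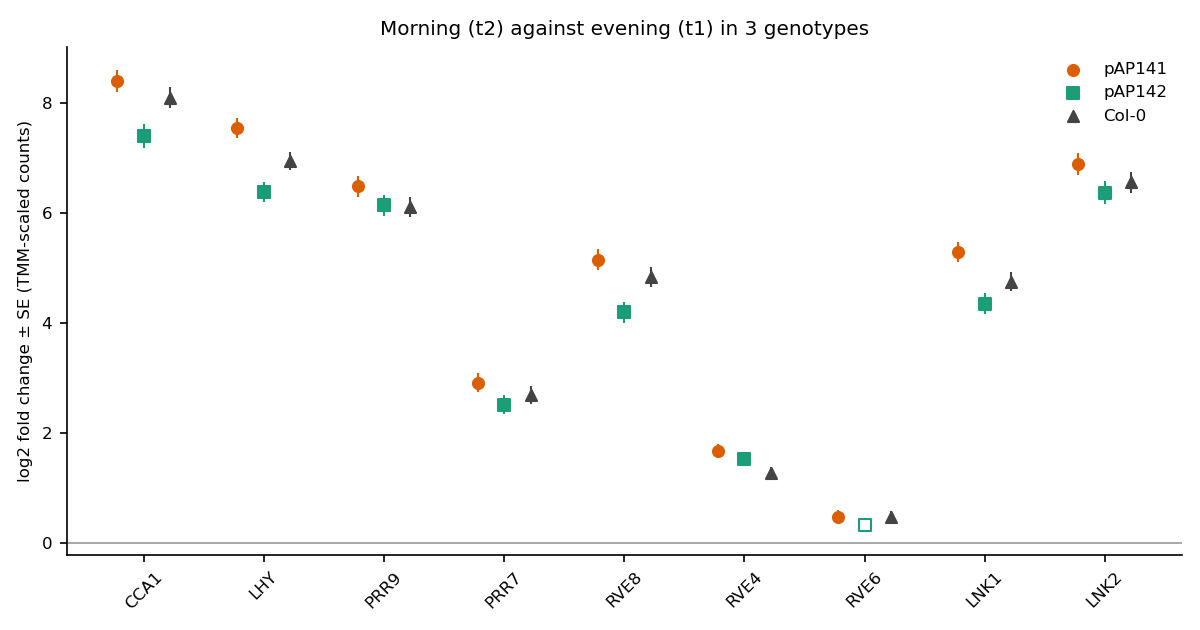
Log2 fold change of TMM-scaled counts between morning (t2) and evening (t1) for each morning clock gene in pAP141 (circles), pAP142 (squares) and Col-0 (triangles), with SE bars, where filled points passed the edgeR test and the open point did not. The order of the genes is alike in the 3 genotypes, from 7.39 to 8.39 for CCA1 down to 0.32 to 0.47 for RVE6.

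Other clock genes place these values in the cycle. Of 12 evening clock genes, 10 were lower at t2 in Col-0, in pAP141 and in pAP142. Among them, PRR3, a pseudo-response regulator, had 0.187 ± 0.079 TPM at t2 (SD, n = 3), against 17.9 ± 1.1 TPM at t1 (n = 4) in Col-0, and COR27, a repressor of clock genes, had 0.797 ± 0.48 TPM at t2, against 44.2 ± 4.3 TPM at t1. CHE was the exception that rose (log2 fold change 1.101 in Col-0), and GI, which promotes flowering through CO, had 0.25 and was not called. Of the 7 other REVEILLE and LNK genes, 6 were higher at t2 in each genotype. LNK4 had 98.4 ± 5.0 TPM at t2, against 0.80 ± 0.30 TPM at t1, and LNK3 77.4 ± 6.6 TPM at t2, against 0.557 ± 0.13 TPM at t1, in Col-0. RVE2 fell instead, with 16.4 ± 2.0 TPM at t2, against 164 ± 19 TPM at t1. Of 9 other clock-associated regulators, JMJD5, a histone demethylase, fell by 6.52 on the log2 scale in Col-0, DET1 (0.33) and ZTL (0.24) were called higher, and 6 were not called. The DET1 and ZTL calls were lost on the log2(TPM + 1) scale, and held in 2 of 7 (DET1) and 1 of 7 (ZTL) fits without 1 sample. The lists' median log2 fold changes in Col-0 were -2.56 for evening genes, 3.10 for the other REVEILLE and LNK genes and 0.03 for the regulators.

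The deletion lines were then compared with Col-0 at the same time of day. In pAP141 no member passed the test at t2, where 0.0983% of all genes were called, or at t1, where 0.0749% were called. At t2 1 member and at t1 3 members had an unadjusted p under 0.05 in edgeR, where the share of all genes was not counted. DESeq2, which called 451 of 19358 genes given an adjusted p at t2 and 1094 of 12024 at t1, called 1 member at each time. At t2 this was RVE4, with 77.0 and 89.8 TPM in pAP141, against 75.5, 68.5 and 69.5 TPM in Col-0. The samples did not overlap, but with 2 pAP141 samples the log2 fold change of 0.47 ± 0.12 had an adjusted p of 0.125 in edgeR and 0.0291 in DESeq2. At t1 it was LHY, with 0.295, 0.350, 0.468 and 0.396 TPM in pAP141, against 0.478, 0.820, 0.570 and 0.706 TPM in Col-0. Every pAP141 sample was below every Col-0 sample, and the log2 fold change was -0.59 ± 0.17 (adjusted p = 0.132 in edgeR, 0.0423 in DESeq2). LNK2 (-0.41 ± 0.16) and PRR7 (-0.38 ± 0.15) had the other unadjusted p values under 0.05 at t1 (adjusted p = 0.153 and 0.160 in edgeR). The log2 fold changes of all 9 members at t2 lay between -0.15 (PRR7) and 0.47 (RVE4).

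In pAP142 a few members were called, in a line where many genes were. At t2, 1 member passed, where 7.74% of all genes were called. PRR9 had 22.8, 25.9 and 30.5 TPM in pAP142, against 22.6, 17.5 and 17.7 TPM in Col-0 (log2 fold change 0.49 ± 0.15, adjusted p = 0.0491 in edgeR). The lowest pAP142 sample lay just above the highest Col-0 sample, and the call was lost without Col-0 replicate 1, 2 or 3 or pAP142 replicate 2 or 3 (adjusted p up to 0.22), with no filter on low counts (0.0504), with only the groups compared (0.0793) and with a replicate block (0.0706). PRR7 at t2 had 33.7, 40.3 and 43.6 TPM in pAP142, against 33.2, 27.8 and 30.8 TPM in Col-0 (0.39 ± 0.17, adjusted p = 0.172 in edgeR). LHY had 49.9, 41.1 and 59.9 TPM in pAP142, against 81.6, 72.9 and 52.9 TPM in Col-0 (-0.42 ± 0.14, adjusted p = 0.0772), and CCA1 69.3, 60.2 and 87.3 TPM in pAP142, against 112, 94.6 and 83.1 TPM in Col-0 (-0.38 ± 0.16, adjusted p = 0.144). LHY and CCA1 overlapped between the genotypes and did not pass the test.

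At t1, 2 members passed in pAP142, where 18.3% of all genes were called. PRR7 had 7.66, 6.76 and 8.88 TPM in pAP142, against 4.79, 6.35, 4.53 and 6.24 TPM in Col-0. Every pAP142 sample was above every Col-0 sample, and the log2 fold change was 0.56 ± 0.16 (adjusted p = 0.0225 in edgeR). RVE4 had 26.0, 25.0 and 27.7 TPM in pAP142, against 29.8, 35.0, 37.0 and 33.1 TPM in Col-0. It was lower in every pAP142 sample, with a log2 fold change of -0.32 ± 0.10 (adjusted p = 0.0403 in edgeR). The PRR7 call was lost without Col-0 replicate 1 or 3 or pAP142 replicate 1 or 3 (adjusted p up to 0.11) and on the log2(TPM + 1) scale (0.44, adjusted p = 0.0964 in limma), and the RVE4 call without Col-0 replicate 2, 3 or 4 or pAP142 replicate 2 or 3 (adjusted p up to 0.17) and with RLE scaling (adjusted p = 0.0566). The share of 2 in 9 is near the share of all genes called. Some of the 12 root markers moved with the genotype, and the list summed to 35.7 to 66 TPM in pAP142, against 66.9 to 103 TPM in Col-0, at t2, and to 34.1 to 54.8 TPM in pAP142, against 63.5 to 91.5 TPM in Col-0, at t1. Of these markers 2 were called lower at t2 and 4 at t1, and the others were not called, among them PIN2 (-0.04 at t2, 0.07 at t1) and PLT1 (0.11 at t2, 0.67 at t1). Photosynthetic leaf markers summed to 39963 to 43371 TPM in pAP142, against 44624 to 47600 TPM in Col-0, at t2, and to 21277 to 25500 TPM in pAP142, against 25956 to 28253 TPM in Col-0, at t1. These sums did not overlap, and 0 of the 6 leaf markers were called in edgeR at either time (1 had an unadjusted p under 0.05 at each time). The part of both marker lists in the values of PRR9, PRR7 and RVE4 was not tested.

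**Figure D3:**
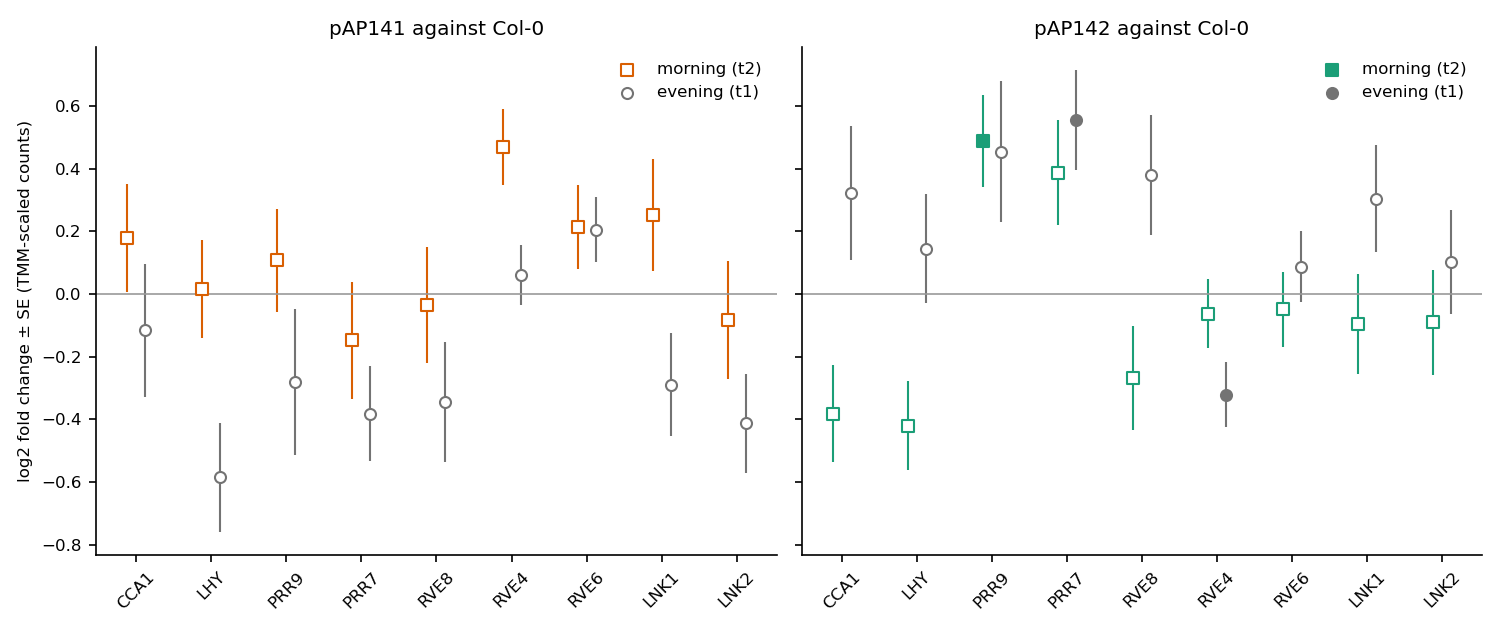
Log2 fold change of TMM-scaled counts of each morning clock gene against Col-0, for pAP141 on the left and pAP142 on the right, at t2 (squares) and t1 (circles), with SE bars, where filled points passed the edgeR test. The filled points are PRR9 at t2 and PRR7 and RVE4 at t1, all in pAP142, and every value lies between -0.59 and 0.56.

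The interaction of line and time point asks whether the t2 against t1 difference itself differed from that of Col-0. No member passed in pAP141 (0% of all genes were called) or in pAP142 (0.211% were called). In each line 3 members had an unadjusted p under 0.05 in edgeR, and likewise 3 in DESeq2, which called none. In pAP141 these were LHY (0.60 ± 0.23), LNK1 (0.54 ± 0.24) and RVE4 (0.41 ± 0.16), each with a larger difference between t2 and t1 than Col-0 (adjusted p = 0.741 to 0.746 in edgeR). In pAP142 they were CCA1 (-0.70 ± 0.26), RVE8 (-0.65 ± 0.25) and LHY (-0.56 ± 0.22), each with a smaller difference than Col-0 (adjusted p = 0.339 to 0.373 in edgeR). The share of all genes with an unadjusted p under 0.05 was not counted, so these counts of members have no share to be read against. Both interactions and the comparisons of lines share the Col-0 samples.

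In the pAP146 experiment some members lay outside the levels of both times of day. In leaves of Col-0, CCA1 averaged 9.0 ± 0.91 TPM and LHY 2.12 ± 0.51 TPM (SD, n = 4), below all t2 and above all t1 seedlings of the other experiment. PRR7, at 66.8 ± 6.5 TPM in Col-0 leaves, was above every t2 seedling sample. RVE4, RVE6 and RVE8 overlapped with the seedlings of the other experiment in 1 or more of the pAP146 groups. RVE6 was at its lowest in leaves, with 4.59 ± 0.47 TPM in Col-0. The CCA1 to LHY ratio in TPM was 5.0 to 7.42 in heterozygous, 4.30 to 7.34 in sibling and 3.45 to 5.53 in Col-0 leaves. The 2 experiments differ in tissue, growth and possibly hour, so these levels are given side by side with no test.

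Homozygous pAP146 seedlings were compared with sibling and Col-0 leaves, a comparison of genotype and tissue together. Against siblings 4 members were lower on the TMM scale, where 27.8% of all genes tested were called lower. These were PRR9 (-1.14 ± 0.26, adjusted p = 0.00172), LNK2 (-0.93 ± 0.21, adjusted p = 0.00144), PRR7 (-0.90 ± 0.12, adjusted p = 2.3e-05) and LNK1 (-0.56 ± 0.15, adjusted p = 0.00607), all in edgeR. Against Col-0 5 members were lower, where 28.2% of all genes were called lower. These were the same genes and CCA1 (-0.68 ± 0.20, adjusted p = 0.00801), which had -0.43 ± 0.20 against siblings (adjusted p = 0.0726). No member was called higher in edgeR, where 6872 of the 20833 genes tested were called higher against siblings and 7045 against Col-0.

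On the TPM scale the picture differed, since that scale moves the median gene upwards by 0.70 in homozygous seedlings. None of the 4 passed as lower against siblings on log2(TPM + 1) in limma (PRR9 -0.39, LNK2 -0.24, PRR7 -0.17, and LNK1 at 0.16 with the sign turned). LHY (0.91, adjusted p = 0.00065), RVE8 (0.85, adjusted p = 0.000871), RVE6 (0.59, adjusted p = 0.000376) and RVE4 (0.55, adjusted p = 0.00383) were called higher instead. In that limma fit, 14543 of the 20833 genes tested were called higher against siblings and 2084 lower. On the TMM scale LHY had 0.54 ± 0.30 and RVE8 0.37 ± 0.24, and RVE4 (-0.18 ± 0.16) and RVE6 (-0.06 ± 0.13) had the other sign, none of them called. Among all genes the share of calls that were higher was 54.3% on the TMM scale and 87.5% on the TPM scale against siblings, and 54.6% and 87.0% against Col-0. Against Col-0, PRR9 (-0.72) and LNK2 (-0.53) passed as lower on both scales, where limma called 2182 of 20833 genes lower.

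**Figure D4:**
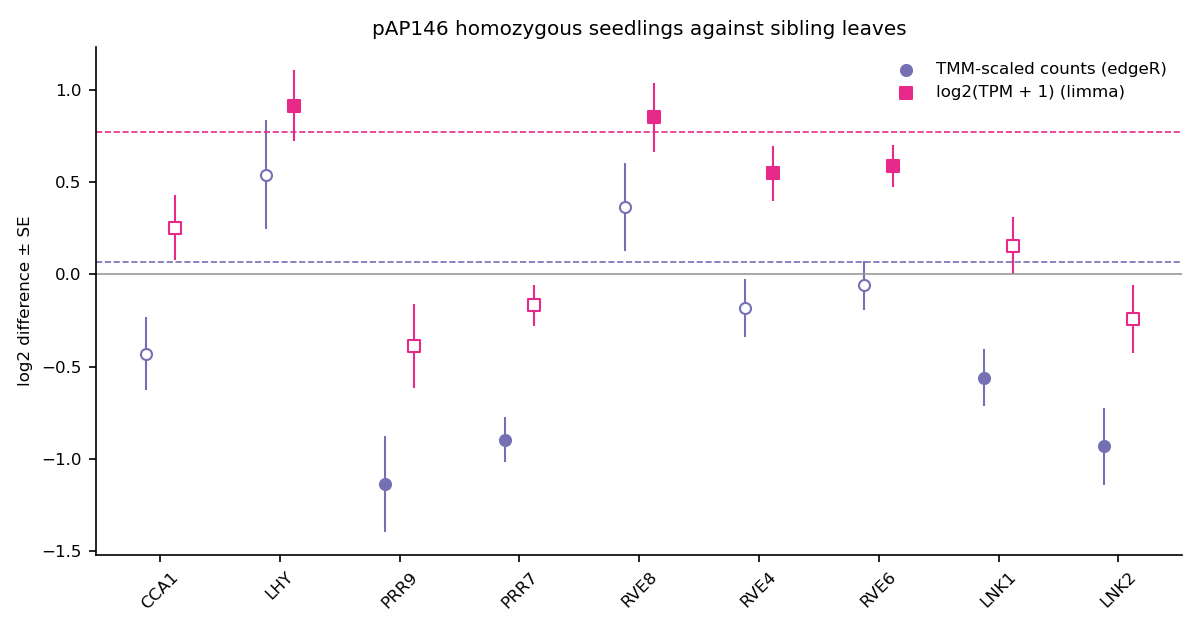
Log2 difference between homozygous pAP146 seedlings and sibling leaves for each morning clock gene on TMM-scaled counts (circles, edgeR) and on log2(TPM + 1) (squares, limma), with SE bars, where filled points passed the test. Dashed lines are the median of all genes on the TMM scale (0.07) and that median moved by 0.70 for the TPM scale. The upper line was taken from group mean TPM and is not the median of the values shown as squares. Against the TMM line, the circles of all members but LHY and RVE8 lie below, and those of LHY and RVE8 above.

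The TPM of single samples are given next, while the calls on the TMM scale rest on scaled counts. PRR9 had 10.3, 7.97, 6.39 and 4.48 TPM in homozygous seedlings, against 9.09, 6.74, 11.41 and 11.5 TPM in siblings. LNK2 had 60.0, 34.8, 38.9 and 28.9 TPM in homozygous seedlings, against 43.6, 39.9, 49.2 and 54.5 TPM in siblings. The groups overlapped in TPM through homozygous replicates 1 and 2 for PRR9, and through homozygous replicate 1 alone for LNK2. PRR7 had 64.7, 61.3, 58.2 and 47.1 TPM in homozygous seedlings, against 57.7, 67.8, 68.8 and 64.8 TPM in siblings. LHY had 4.59, 3.67, 3.36 and 3.33 TPM in homozygous seedlings, against 1.31, 0.876, 1.92 and 2.09 TPM in siblings. Every homozygous sample was above every leaf sample of any genotype in LHY. The same held for RVE6, with 6.60, 7.78, 8.19 and 6.83 TPM in homozygous seedlings, against 3.92, 4.79, 4.42 and 5.13 TPM in siblings and at most 6.02 TPM in any leaf. RVE8 had 7.78, 5.21, 5.48 and 4.08 TPM in homozygous seedlings, against 2.04, 2.30, 3.11 and 3.11 TPM in siblings, with no overlap between these groups. These gaps are in TPM, the scale that moved the median gene upwards by 0.70. LHY, RVE6 and RVE8 were not called on the TMM scale, and the share of all genes parted in this way was not counted. CCA1 had 13.0, 8.17, 7.75 and 8.40 TPM in homozygous seedlings, against 6.50, 6.43, 8.42 and 9.01 TPM in siblings, and these overlapped.

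The ratio of 2 genes within a sample does not depend on how libraries are scaled. The CCA1 to LHY ratio in TPM was 2.22 to 2.83 in homozygous seedlings, against 4.30 to 7.34 in siblings and 3.45 to 5.53 in Col-0, with no overlap. The LNK2 to LNK1 ratio was 1.64 to 2.70 in homozygous seedlings, against 2.65 to 3.23 in siblings and 2.71 to 3.88 in Col-0, overlapping with siblings by a small margin. The PRR7 to PRR9 ratio (6.27 to 10.5 in homozygous seedlings, against 5.64 to 10.05 in siblings) and the RVE4 to RVE8 ratio (5.32 to 9.98 in homozygous seedlings, against 7.82 to 11.5 in siblings) overlapped. The ratios were chosen with the levels known and were not tested.

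**Figure D5:**
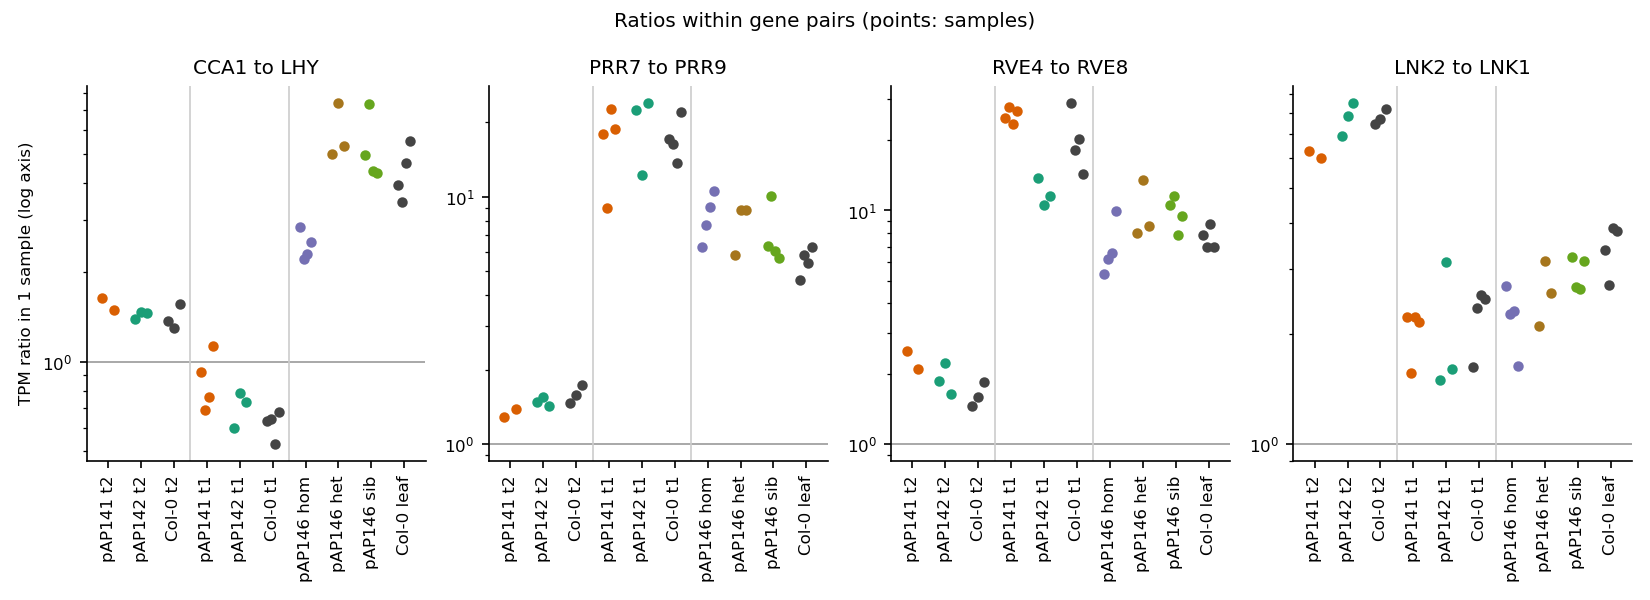
Ratio of TPM within 4 pairs of morning clock genes (log axes), 1 point a sample, with vertical lines parting morning seedlings (t2), evening seedlings (t1) and the pAP146 experiment, and a horizontal line at equal levels. CCA1 exceeds LHY at t2 and in all pAP146 samples, where homozygous seedlings (2.22 to 2.83) lie below all leaves (at least 3.45). At t1 it is below LHY in Col-0 and pAP142, and the ratio runs from 0.69 to 1.13 in pAP141.

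Markers of tissue moved with the homozygous samples. Root markers summed to 10.9, 35.4, 70.8 and 107 TPM in the homozygous seedlings, against 1.02 to 1.91 TPM in siblings and 0.911 to 1.69 TPM in Col-0, where 7 of 12 were at 0 in all samples. The 11 root markers that passed the count filter were all called higher against either leaf group. Photosynthetic leaf markers summed to 24324 to 39282 TPM in homozygous seedlings, against 66529 to 74466 TPM in siblings and 65960 to 73745 TPM in Col-0, and 6 of 6 were called lower against either. The seedling with the least root marker signal, replicate 1, had the highest TPM of the homozygous samples in all members but RVE6. Without it CCA1 was called lower against siblings as well (-0.67, adjusted p = 0.00321 in edgeR), which made 5 members lower. Against Col-0 leaving it out made 6, RVE4 joining at -0.44 (adjusted p = 0.0375). No share of all genes called lower was taken from these fits, so the added calls have no share beside them. The part of tissue in the differences between homozygous seedlings and leaves was not tested.

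Of the evening clock genes, 3 were called higher and 5 lower on the TMM scale in homozygous seedlings against either leaf group. Of the 20833 genes tested, 6872 were higher and 5794 lower against siblings, and 7045 and 5865 against Col-0. Called lower, ELF3 (18.1 against 15.8), GI (17.9 against 15.9) and PRR5 (53.1 against 48.4) had higher mean TPM in homozygous seedlings than in siblings. CHE and PRR3 had lower mean TPM. TOC1, the evening repressor of CCA1 and LHY, had 34.8 ± 3.1 TPM in homozygous seedlings (SD, n = 4), against 13.5 ± 3.2 TPM in siblings and 11 ± 0.78 TPM in Col-0, and was called higher against Col-0 (log2 fold change 0.87, adjusted p = 6.8e-05 in edgeR). CHE was lower against siblings (-1.05) and against Col-0 (-1.11). Of the other REVEILLE and LNK genes, LNK3 (-1.41) and LNK4 (-1.01) were lower against siblings, as LNK1 and LNK2 were, and RVE2 was higher (1.41).

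No member passed the test in heterozygous or sibling leaves. Heterozygous leaves were compared with siblings, where 0.0528% of all genes were called, and siblings with Col-0, where 0.0144% were called. In both comparisons edgeR called 0 members, 0 had an unadjusted p under 0.05 in edgeR, and DESeq2 called 0. Heterozygous leaves had 11.6, 6.55 and 9.03 TPM of CCA1 and 68.3, 59.9 and 72.7 TPM of PRR7, against 6.50, 6.43, 8.42 and 9.01 TPM of CCA1 and 57.7, 67.8, 68.8 and 64.8 TPM of PRR7 in siblings. Log2 fold changes of heterozygous against sibling leaves lay between -0.22 (PRR9, SE 0.28) and 0.16 (CCA1, SE 0.21), and those of siblings against Col-0 between -0.50 (RVE8, SE 0.24) and -0.01 (RVE6, SE 0.13). The SE was larger than the difference in 9 of 9 members for heterozygous against sibling leaves, so that differences of that size were not detectable here, and in 3 of 9 (LNK1, PRR7 and RVE6) for siblings against Col-0.

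Across the 10 groups, CCA1, LHY, LNK2 and PRR9 spanned the widest ranges, with group means in TPM that differed 292-fold, 183-fold, 123-fold and 114-fold between the highest and the lowest group. RVE8 (36.4-fold), LNK1 (33.1-fold) and PRR7 (17.9-fold) were intermediate, and RVE4 (3.28-fold) and RVE6 (1.72-fold) the flattest. The lowest mean of CCA1, LHY, PRR9, PRR7, RVE8, LNK1 and LNK2 was that of pAP141 at t1, and of RVE4 and RVE6 that of sibling leaves. Relative to TMM, the TPM scale moved the median gene by -0.17 for pAP141 against Col-0 at t1, where edgeR called no member. In descending order of mean CCA1 ran through Col-0, pAP141 and pAP142 at t2, homozygous, heterozygous, Col-0 and sibling pAP146 samples, and pAP142, Col-0 and pAP141 at t1. Neighbours in that order overlapped except pAP142 at t2 with homozygous seedlings and siblings with pAP142 at t1. LHY had the same first 4 groups, then Col-0, heterozygous and sibling leaves and the same last 3, and neighbours were parted on both sides of homozygous seedlings, between siblings and pAP142 at t1, and between Col-0 and pAP141 at t1. PRR9 was led by pAP142, Col-0 and pAP141 at t2, followed by Col-0, sibling, heterozygous and homozygous pAP146 samples, and by pAP142, Col-0 and pAP141 at t1, and only pAP142 and Col-0 at t2, pAP141 at t2 and Col-0 leaves, and homozygous seedlings and pAP142 at t1 were parted. PRR7 began with heterozygous, Col-0 and sibling leaves and homozygous seedlings, which overlapped, and went on with pAP142, Col-0 and pAP141 at t2 and pAP142, Col-0 and pAP141 at t1, where pAP142 was parted from both its neighbours at each time. LNK1 ran through pAP141, Col-0 and pAP142 at t2, the 4 overlapping pAP146 groups, and pAP142, Col-0 and pAP141 at t1, with gaps only before and after the pAP146 groups. LNK2 ran through Col-0, pAP142 and pAP141 at t2, Col-0, heterozygous, sibling and homozygous pAP146 samples, and pAP142, Col-0 and pAP141 at t1, and Col-0 leaves were parted from both neighbours, as were homozygous seedlings from pAP142 at t1. RVE8 kept the order of CCA1 at t2 and t1, with overlap from homozygous seedlings downwards. RVE4 ran from pAP141, parted from the next, through Col-0 and pAP142 at t2, parted again, to homozygous seedlings, and all later neighbours overlapped. In RVE6 the seedlings of all kinds overlapped, and the last of them in order of mean, Col-0 at t1, was parted from heterozygous leaves. However, pAP141 at t1 reached down to 5.96 TPM, below the highest heterozygous leaf at 6.02 TPM.

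The genes whose pattern was most like that of each member were taken by Pearson's r of log2(TPM + 1) over the 34 samples, among the 12925 genes whose mean reached 5 TPM. The samples fall into clusters by time and tissue and share their libraries, so that r is a description without a test. LHY and RVE8 were nearest to each other (r = 0.994). CCA1 was nearest to LNK2 (0.978), LNK3 (0.976) and STH (0.975), a B-box protein of light signalling, and LNK2 to LNK4 (0.995), LNK3 (0.993) and STH (0.990). PRR9 and LNK1 shared STO, another B-box protein (0.985 with PRR9, 0.990 with LNK1), and ABCF5 (0.984 and 0.985 in the same order), and were followed by BBX28 (0.980, for PRR9) and ABA1, a zeaxanthin epoxidase (0.985, for LNK1). PRR7 was nearest to CYP709B3 (0.968), the blue-light receptor CRY1 (0.967) and PIF7 (0.965). LHY had AT1G55960 (0.984) and NDT1 (0.971) next, and RVE8 had AT1G55960 (0.974) and the starch synthase GBSS1 (0.970). RVE4 was nearest to AT1G10740 (0.949), AT1G65870 (0.944) and RVE1 (0.941), and RVE6 to AT3G27090 (0.933), the kinase subunit KIN11 (0.916) and IAA12 (0.910). Among the members themselves r with RVE6 ran from -0.34 (PRR7) to 0.68 (RVE4).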

How the data were processed

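Poly(A) RNA was sequenced by the authors with a stranded kit and quantified with Salmon 1.6.0 on the primary transcripts of Araport11, 1 a gene (HISAT2 2.2.1 and DESeq2 1.44.0 are also named). The deposited estimated counts hold the reads given to a transcript, before any normalization. In the deposited TPM values these counts had been corrected by the authors for transcript length and scaled to the same sum in each library. Of the listed lengths 99.9% are multiples of 3, as of coding sequence, so reads from untranslated regions do not count.

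Estimated counts were rounded and tested in edgeR 4.0.16 (R 4.3.3) by the quasi-likelihood test with TMM scaling and the filterByExpr filter, in 1 model of group means per experiment (21356 genes in the time-of-day and 20833 in the pAP146 experiment), calling genes at 0.05 after Benjamini-Hochberg adjustment over the genes tested. Groups came from the labels. The members and gene lists were chosen with earlier results of these data known. All members are named, and from each other list at most 3 called genes a comparison with the smallest adjusted p, plus genes that a list's direction turns on. Promoters came from the RefSeq annotation of TAIR10.1. Alternatives were RLE size factors, no filter, DESeq2 1.42.0, limma 3.58.1 on log2(TPM + 1), a replicate block, only the groups compared, and each sample left out. Fits were tested on simulated data with the same spread in both experiments, near that of the time-of-day experiment (coefficient of variation between samples 0.152). The spread fitted in the pAP146 experiment was larger (0.257), so the simulation does not cover it. Python 3.11.15, numpy 2.4.6, pandas 2.3.3 and matplotlib 3.10.9 were used for the rest.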

Additional observations from a re-analysis of the deposited data

Results flagged for a closer look

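In groups of 4, samples were compared with the rest of their group for each member, 45 tests in all, of which chance flags about 1 in 20. CCA1 in homozygous pAP146 seedlings had 1 sample far from the others, replicate 1 with 13.0 TPM, against 7.75 to 8.40 TPM in the other 3 (the gap was 0.876 of the range). RVE4 in Col-0 leaves had replicate 3 at 39.1 TPM, against 23.7 to 26.3 TPM in the other 3 (0.831 of the range). Without the Col-0 replicate no member's call changed, and without the homozygous one CCA1 passed as lower against siblings.

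The difference between t2 and t1 differed from that of Col-0 in pAP142 for 2 genes outside the members. COR27 had an interaction of -1.65 on the log2 scale (adjusted p = 0.0410 in edgeR), with 0.278 to 0.314 TPM in pAP142 and 0.428 to 1.34 TPM in Col-0 at t2, and 49.7 to 55.2 TPM in pAP142 and 40.6 to 49.8 TPM in Col-0 at t1. It was called in 1 of 13 fits without 1 sample (adjusted p 0.0204 to 0.178, and 0.078 with a replicate block). RVE2 had -0.78 (adjusted p = 0.0352), with 9.68 to 11 TPM in pAP142 and 14.4 to 18.4 TPM in Col-0 at t2, and was called in 3 of 13 such fits (adjusted p 0.0380 to 0.118, and 0.0965 with a replicate block).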

How the results depend on the processing

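The counts of members called between t2 and t1, in the interactions, and between heterozygous or sibling leaves and their controls stayed within 1.5 times the reported count in every alternative. Others moved. For pAP141 against Col-0 (0 called), DESeq2 called 1 at t2 and 1 at t1. Leaving out a sample gave 0 to 2 at t1 (2 without pAP141 replicate 3), and 0 at t2 without a Col-0 sample. Without 1 of the 2 pAP141 samples at t2, 1 library remains in that group, and calls of such fits are not given. For pAP142 against Col-0, at t2 (1 called) no filter, only the groups compared and the replicate block each gave 0, and leaving out a sample 0 to 1. At t1 (2 called) RLE gave 1, limma 1, and leaving out a sample 0 to 2 (0 without Col-0 or pAP142 replicate 3). Homozygous pAP146 seedlings had 0 members lower against siblings (4 reported) and 2 against Col-0 (5 reported) in limma on log2(TPM + 1). That scale turned the sign of 11 values, against siblings ELF3 0.19, DET1 0.40, RVE4 0.55, RVE6 0.59 and LNK1 0.16, and against Col-0 CCA1 0.023, RVE8 0.47, DET1 0.24, RVE4 0.40, RVE6 0.58 and LNK1 0.0942. The share of calls that were higher between t2 and t1 was 22.3% (Col-0), 22.9% (pAP141) and 25.2% (pAP142) on that scale, against 45.7%, 51.7% and 48.6%. Of the values of single genes, DESeq2 left 158 on their side of the threshold and 3 passed newly, limma on log2(TPM + 1) lost 17 and gained 3 beside those turned, RLE and no filter lost 1 each, only the groups compared lost 6, and leaving out a sample left 1200, lost 54 and gained 11. Of the similar genes 24 of 27 were found again with a pseudocount of 0.5 and 24 with a mean of at least 1 TPM.

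Calls over all genes differed more. DESeq2 called 451 genes (21 in edgeR) at t2 and 1094 (16) at t1 for pAP141, 14 (0) and 245 (45) in the pAP141 and pAP142 interactions, and 38 (11) in heterozygous leaves. Limma called 12 and 10 for pAP141 at t2 and t1. With only the groups compared, 9 were called for pAP141 at t2, 1047 (1654) for pAP142 at t2 and 12 in the pAP142 interaction. Replicate numbers showed no pairing of the samples on average, which does not exclude pairing in some groups. Residuals of same-numbered samples correlated at 0.02 on average over 41 pairs of the time-of-day experiment (12 over 0.1) and at -0.03 over 21 pairs of the pAP146 experiment (5 over 0.1). With a replicate block 162 values of single genes kept their side and 3 were lost, and over all genes 15 were called in the pAP142 interaction and 0 in heterozygous leaves. Evening levels of CCA1, LHY and PRR9 rest on 16 to 99 estimated counts a sample, and pAP141 at t2 on 2 samples.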
